A study of Mus musculus with 12 samples.

Results

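The genes described here are named after the eukaryotic translation initiation factors of the mouse, the proteins that bring a ribosome to the start codon of an mRNA. Some of them encode kinases or binding proteins that act on these factors, and others, such as Eif4a3 and Eif5a, act at other stages. All listed genes whose symbol begins with Eif and a digit were taken, pseudogenes left out, which gave 52 of the 14560 genes in the table. The study sorted 4 populations of bone marrow cells of C57BL/6J mice, 3 animals in all, and sequenced 3 RNA libraries per population. All 3 progenitor populations were gated as c-Kit+ Sca1- CD34+ CD16/32+ cells, the phenotype of granulocyte-monocyte progenitors, without B220, CD3, Ter119, CD11b and Gr1. DN-GMPs had neither CDH1 (E-cadherin) nor FceRIa (a chain of the IgE receptor) at the surface. Pro-BMPs carried CDH1 and lacked FceRIa, and Pre-BMPs carried FceRIa and lacked CDH1. Basophils were c-Kit- CD49b+ FceRIa+ cells from which B220, CD4, CD8a, Ter119 and Sca1 positive cells had been gated out. All 4 populations came from untreated animals as far as the labels say, and no genotype other than the strain is given. The 3 libraries of a population are called independent triplicates, but the labels do not tie a number to a mouse, so the tests measure the spread between these libraries.

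Initiation starts when eIF2, loaded with GTP and the initiator tRNA, joins the small ribosomal subunit together with eIF1, eIF1A, eIF3 and eIF5. The complex eIF4F, made of the cap-binding protein eIF4E, the scaffold eIF4G and the RNA helicase eIF4A, recruits that subunit to the capped end of an mRNA, and eIF5B then joins the large subunit at the start codon. eIF2B recharges eIF2 with GTP, and 4 kinases can stop that by phosphorylating the alpha subunit of eIF2, while the 4E-binding proteins can keep eIF4E away from eIF4G. In blood formation, dividing progenitors are known as cells with high demand for protein synthesis, and basophils are granulocytes that store ready-made mediators in their granules.

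Levels are given in CPM, reads per 1000000 of the library size that the authors' scaling gives, as the values of libraries 1, 2 and 3. Reads on listed genes ran from 29762981 to 42502405 per library. The summed level of the family was 11167, 10772 and 10939 CPM in DN-GMPs and 10267, 10260 and 9527 CPM in Pro-BMPs. It was 8296, 8371 and 7503 CPM in Pre-BMPs and 6405, 6488 and 6318 CPM in Basophils. Library 3 of Pro-BMPs and library 3 of Pre-BMPs thus lay below the other libraries of their population, which were close to each other. The basophil markers rose in the order of the gates: the summed level of 8 basophil markers was 89.8 to 120.3 CPM for DN-GMPs, 1039 to 1373 CPM for Pro-BMPs, 4950 to 5983 CPM for Pre-BMPs and 38558 to 44506 CPM for Basophils, and Fcer1a and Cd200r3 were at 0 in DN-GMPs. That of 7 granulocyte-monocyte progenitor markers was 19588 to 22664 CPM for DN-GMPs and 18411 to 20362 CPM for Pro-BMPs. It was lower for Pre-BMPs, which share that gate, at 6488 to 7379 CPM, and was 3772 to 4974 CPM for Basophils. The 2 listed B cell markers summed to 64.1 to 76.3 CPM in Basophils and 30.4 to 56.8 CPM in the progenitors. The summed level of 7 neutrophil markers stayed between 46.5 and 253.7 CPM in all libraries, that of 6 monocyte markers was 1971 to 2367 CPM in DN-GMPs and 293.8 to 585.5 CPM in the other populations, and that of the 5 listed erythroid markers was at most 40.2 CPM. The part of the remaining monocyte signal in the differences from DN-GMPs was not tested. In sorted bulk RNA, fewer cells that express a gene and less of its RNA per cell cannot be told apart.

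The Eif genes as a family took a smaller share of the transcriptome at each step towards the basophil, and the lowest share was that of Basophils. Reads on the 52 genes made up 1.42% to 1.501% of the reads on listed genes for DN-GMPs, 1.31% to 1.39% for Pro-BMPs, 1.05% to 1.18% for Pre-BMPs and 0.702% to 0.733% for Basophils. The ranges of the 4 populations did not overlap. A moderated F-test over the 4 population means (limma, adjusted p under 0.05 over all 14560 genes) called 38 of the 52 genes, where it called 46.8% of all genes.

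**Figure D1:**
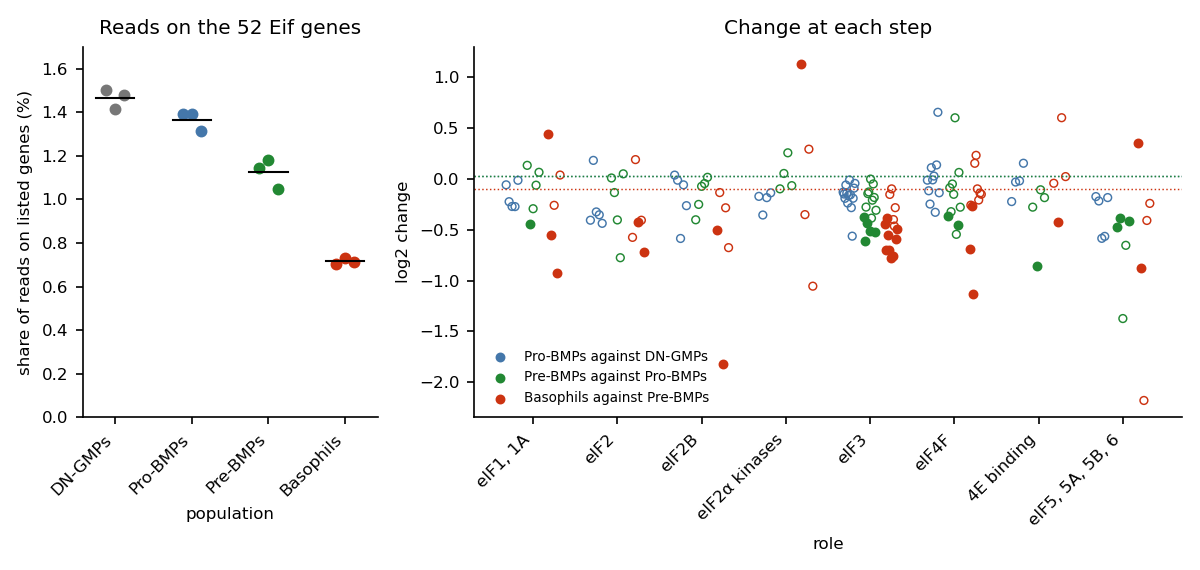
Left, reads on the 52 Eif genes as a percentage of reads on listed genes, with 1 point per library and a line at the mean of 3, in DN-GMPs (grey), Pro-BMPs (blue), Pre-BMPs (green) and Basophils (red). Right, log2 change of each gene by role at the 3 steps, filled where the adjusted p is under 0.05, with dotted lines at the median of all genes. The share is 1.42% or more in DN-GMPs and at most 0.733% in Basophils, and most filled points lie below 0.

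At the first step, Pro-BMPs against DN-GMPs, no member passed the test in limma, where 2.0% of all genes were called higher and 0.536% lower, 2.53% in either direction. The smallest adjusted p was 0.187, that of Eif4g3. With precision weights (voom) there were likewise 0 members, while an unadjusted p under 0.05 was reached by 1 member higher and 8 lower in Pro-BMPs, 9 of 52 where 13.9% of all genes reached it. The median change of the members was -0.16 on the log2 scale, against 0.02 over all genes, and 45 of the 52 changes were below 0. Libraries did not overlap for 13 members that were lower in Pro-BMPs, where 9.03% of all genes did so, and for 1 member that was higher, Eif4g3, where 9.81% did so.

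At the second step, Pre-BMPs against Pro-BMPs, 12 members were called lower in Pre-BMPs, where 4.69% of all genes were. None was called higher, where 4.8% of all genes were, with 1 member higher at an unadjusted p under 0.05 and 0 with voom. In either direction the test called 9.49% of all genes. Libraries did not overlap for 24 members that were lower and 1 that was higher in Pre-BMPs, where 16.3% and 16.0% of all genes did so. The median change was -0.23 for members and 0.02 for all genes. This count was lower, at 3 to 9, with any 1 library of the 2 populations left out. It was 6 without Pro-BMP library 1, 3 without Pro-BMP library 2 and 4 without Pre-BMP library 3. A fit of all libraries without the mean-variance trend gave 2. The calls of Eif4ebp1, Eif5 and Eif5a held with any 1 library left out, and the 2 calls left without the trend were those of Eif4ebp1 and Eif5.

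At the third step, Basophils against Pre-BMPs, 20 members were called lower in Basophils, where 16.5% of all genes were, and 3 were called higher, where 13.9% of all genes were and 30.4% were called in either direction. Libraries did not overlap for 25 members that were lower and 4 that were higher, where 24.1% and 23.0% of all genes did so. The 3 higher members were Eif2ak1, Eif1 and Eif5. The median change was -0.40 for members and -0.10 for all genes. Over the whole span, Basophils against DN-GMPs, 35 members were called lower and 3 higher in Basophils, where 23.2% of all genes were called in each direction and 46.4% in either, with a median of -0.87 for members and -0.01 for all genes. Libraries did not overlap for 38 members that were lower in Basophils than in DN-GMPs, where 27.4% of all genes did so, and for 3 that were higher, where 27.0% did so. These comparisons share libraries, so their counts are not independent of each other.

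The level of a library here depends on the authors' scaling, which credits Basophil libraries with 0.839 to 0.858 of their table total and the progenitor libraries with 1.03 to 1.08 of theirs. With library totals in its place, the median of all genes moved by -0.32 between Basophils and Pre-BMPs and by -0.26 between Basophils and DN-GMPs. The members then had 1 higher and 35 lower calls in Basophils against Pre-BMPs, and of all called genes 26.6% were higher, against 45.6% with the deposited scaling. Against DN-GMPs, 38.7% of all called genes were higher with library totals and 49.98% with the deposited scaling. Library totals move all genes by the same amount, so the distance of the median member from the median of all genes, -0.29 between Basophils and Pre-BMPs, is the same under both by construction. With quantile normalization, which does not act alike on all genes, that distance was -0.44.

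**Figure D2:**
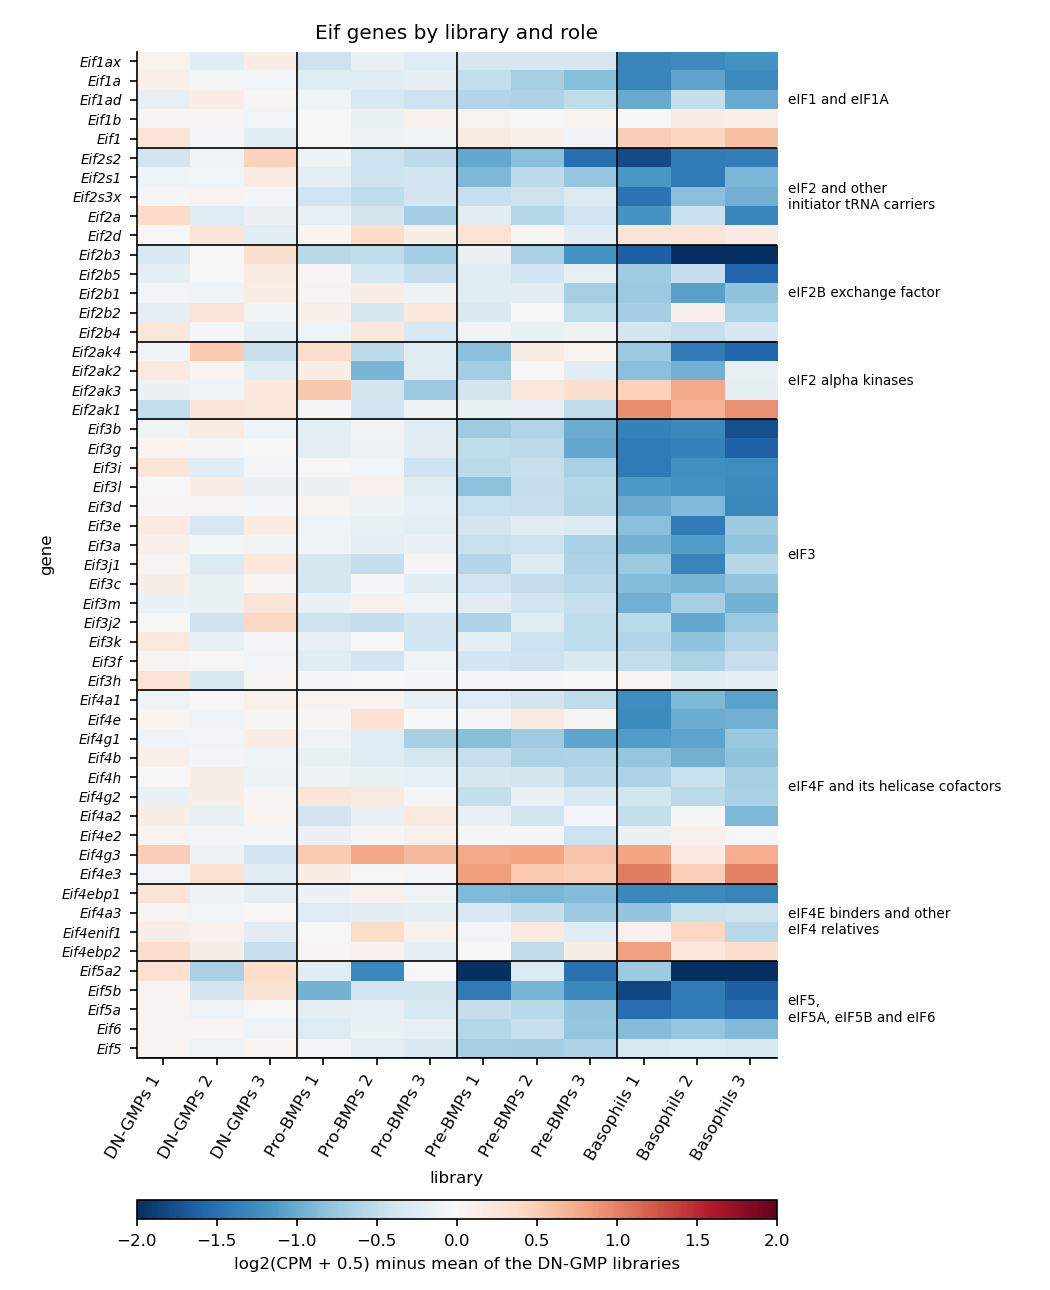
Each row is 1 of the 52 Eif genes, grouped by role, and each column 1 library, in the order DN-GMPs, Pro-BMPs, Pre-BMPs, Basophils. Colour gives log2(CPM + 0.5) minus the mean of the 3 DN-GMP libraries, from -2 (blue) to 2 (red), with values beyond shown at the end of the scale. The Basophil columns are blue for most rows, while Eif2ak1, Eif4e3 and Eif1 are red in all 3 of them.

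The 14 genes of eIF3, the large scaffold that holds the small subunit open for mRNA, all had a change below 0 in each of the 4 comparisons. With library totals or quantile normalization this held for all 14 in both comparisons of Basophils and for 12 or 13 of the 14 at the first and second steps. Of the 14, 5 were called lower in Pre-BMPs than in Pro-BMPs, where 4.69% of all genes were, 9 in Basophils than in Pre-BMPs, where 16.5% were, and 12 in Basophils than in DN-GMPs, where 23.2% were. Each of the 5 calls at the second step was lost without at least 2 single libraries, those of Eif3a and Eif3d without any 1 of the 6, and all 5 were lost without the variance trend. Eif3b, an RNA-binding core subunit, had 524, 613 and 516 CPM in DN-GMPs, 487, 522 and 475 CPM in Pro-BMPs, 337, 362 and 277 CPM in Pre-BMPs and 216, 226 and 161 CPM in Basophils. Each Basophil library was below each Pre-BMP library, and each Pre-BMP library below each Pro-BMP library. The log2 change was -0.61 ± 0.14 (SE) at the second step (adjusted p = 0.0163, limma) and -0.70 ± 0.14 at the third (adjusted p = 0.00242). The call at the second step was lost without Pro-BMP library 2 or Pre-BMP library 3, with an adjusted p of at most 0.0679.

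Eif3g, the subunit that bears an RNA recognition motif, had 102, 106 and 88.04 CPM in Basophils, against 189, 189 and 133 CPM in Pre-BMPs, with a change of -0.77 ± 0.13 (SE; adjusted p = 0.00108, limma). Eif3i had 87.5, 99.5 and 97.8 CPM in Basophils, against 162, 171 and 149 CPM in Pre-BMPs, a change of -0.76 ± 0.14 (adjusted p = 0.00159, limma). Both genes kept each Basophil library under each Pre-BMP library. At the second step Eif3l had 182, 233 and 218 CPM in Pre-BMPs, against 297, 342 and 272 CPM in Pro-BMPs (change -0.53, adjusted p = 0.016, limma), a call lost without Pro-BMP library 2 or Pre-BMP library 1. The call of Eif3g at that step, with a change of -0.52 and an adjusted p of 0.0315 (limma), was lost without any 1 of the Pro-BMP libraries or without Pre-BMP library 3. Over the whole span the 12 called changes of eIF3 genes ran from -1.47 in Eif3b to -0.53 in Eif3f, which encodes a subunit with an MPN domain. Reads of Eif3d and of the opposite-strand gene Gm17638 overlap over 2151 of the 4968 exonic bases of Eif3d (GENCODE M21, GRCm38), and with these unstranded libraries they cannot be told apart.

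Eif3h, whose product pairs with that of Eif3f in the complex, was 1 of the 2 eIF3 genes that did not pass the test. It had 218, 145 and 185 CPM in DN-GMPs, 177, 182 and 177 CPM in Pro-BMPs, 174, 178 and 181 CPM in Pre-BMPs and 185, 156 and 158 CPM in Basophils. All ranges overlap, the change in Basophils against DN-GMPs was -0.12 with a 95% interval of -0.41 to 0.17, and with library totals as the scaling it became -0.38 and was called lower (adjusted p = 0.0353, limma). The other was Eif3j2, at 0.602 to 2.48 CPM in all libraries. It is a copy of Eif3j1, and reads that align to more than 1 place are counted in a row of their own and not for either gene. The ratio of Eif3j1 to Eif3j2 in CPM, as a geometric mean over 3 libraries, was lowest in DN-GMPs at 19.8 and highest in Pro-BMPs at 24.04, and libraries of all populations overlapped.

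Among the factors that keep the scanning subunit ready for the start codon, the genes of eIF1 and eIF1A differed in direction. Eif1, the gatekeeper of start codon choice, was the only one of its 5 genes called higher in Basophils. It had 362, 289.7 and 256 CPM in DN-GMPs, 301, 279.7 and 281 CPM in Pro-BMPs, 339, 321 and 284 CPM in Pre-BMPs and 419, 401 and 456 CPM in Basophils. Each Basophil library was above each library of the other populations. The log2 change was 0.44 ± 0.12 (SE) against Pre-BMPs (adjusted p = 0.0155, limma) and 0.51 ± 0.12 against DN-GMPs (adjusted p = 0.00445). The call against Pre-BMPs was lost with library totals (adjusted p = 0.481), with quantile normalization (adjusted p = 0.952), without the variance trend, and without Pre-BMP library 3 or Basophil library 3. The call against DN-GMPs was lost with library totals (adjusted p = 0.106) and quantile normalization (adjusted p = 0.246). Eif1b, a close copy of Eif1, had 70.4 to 84.9 CPM over all 12 libraries, with a change of 0.03 in Basophils against Pre-BMPs and a 95% interval of -0.20 to 0.27. The ratio of Eif1 to Eif1b in CPM was 3.88 for DN-GMPs, 3.76 for Pro-BMPs, 3.94 for Pre-BMPs and 5.21 for Basophils, and the Basophil libraries lay above all others.

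Eif1a and Eif1ax both encode eIF1A, which opens the small subunit for scanning. Eif1ax had 142, 116 and 148 CPM in DN-GMPs, 101, 121 and 112 CPM in Pro-BMPs, 106, 106 and 106 CPM in Pre-BMPs and 54.2, 55.6 and 58.6 CPM in Basophils. Pro-BMPs overlapped with both other progenitor populations, and all 3 Basophil libraries lay below every progenitor library, with a change of -0.92 ± 0.12 (SE) against Pre-BMPs (adjusted p = 0.000145, limma). Eif1a had 201, 180.4 and 180.01 CPM in DN-GMPs, 159, 157 and 163 CPM in Pro-BMPs, 133, 118 and 104 CPM in Pre-BMPs and 74.4, 90.03 and 77.03 CPM in Basophils. Here each population lay below the one before it, with a change of -0.44 at the second step (adjusted p = 0.0357, limma) and -0.55 at the third (adjusted p = 0.00386). The call at the second step was lost without any 1 of 5 of the 6 libraries, with an adjusted p of up to 0.133, and also with library totals, without the variance trend and with the compared populations alone. The ratio of Eif1a to Eif1ax in CPM stayed between 1.11 and 1.44 as population means. The 2 genes are alike in sequence, so reads that align to both are missing from both. Eif1ad, an eIF1A domain gene, fell in Basophils against DN-GMPs by 0.83 on the log2 scale (adjusted p = 0.00128, limma). Its exons overlap those of Banf1 on the other strand.

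The 3 subunits of eIF2, the carrier of the initiator tRNA, all fell between DN-GMPs and Basophils. Eif2s1, which encodes the alpha subunit that the stress kinases phosphorylate, had 238, 243 and 282 CPM in DN-GMPs, 223, 189.9 and 195 CPM in Pro-BMPs, 136, 176 and 148 CPM in Pre-BMPs and 113, 95.7 and 134 CPM in Basophils. Its level was below that of the population before it at every step without overlap of libraries, and the whole change was -1.16 ± 0.14 (SE; adjusted p = 4.65e-05, limma). The third step alone gave -0.43 (adjusted p = 0.038, limma), a call lost under several alternatives, among them Pre-BMP library 2 or 3 or Basophil library 1 or 2 left out, no variance trend, and the compared populations alone. Eif2s2, the beta subunit, had 26.4, 34.8 and 35.3 CPM in Basophils, against 70.9, 87.7 and 128 CPM in DN-GMPs, a change of -1.54 ± 0.25 (adjusted p = 0.000379, limma). Eif2s3x, the gamma subunit, had 12.5, 19.9 and 18.04 CPM in Basophils, against 34.7, 37.2 and 35.3 CPM in DN-GMPs, a change of -1.12 ± 0.20 (adjusted p = 0.000736, limma). The alternative carriers differed from each other. Eif2a was called lower over the whole span (-0.98, adjusted p = 0.00779, limma), while Eif2d had a change of 0.23 with an interval of -0.13 to 0.58 and did not pass the test.

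Of the 5 genes of eIF2B, the exchange factor that recharges eIF2, Eif2b3 had the largest change of the whole family among called members. It encodes the gamma subunit, which stands with Eif2b5 in the catalytic part. Eif2b3 had 41.8, 51.96 and 65.3 CPM in DN-GMPs, 35.5, 36.7 and 32.1 CPM in Pro-BMPs, 47.7, 33.2 and 22.6 CPM in Pre-BMPs and 16.4, 9.65 and 5.1 CPM in Basophils. The 3 Basophil libraries differed widely among themselves and still lay below all progenitor libraries. The change in Basophils was -1.82 ± 0.39 (SE) against Pre-BMPs (adjusted p = 0.00456, limma) and -2.48 ± 0.39 against DN-GMPs (adjusted p = 0.000331), and both calls held with any 1 library left out. Eif2b5, the catalytic epsilon subunit, had 70.2, 82.04 and 37.8 CPM in Basophils, against 101, 116 and 129 CPM in DN-GMPs and was called lower over the whole span (-0.93, adjusted p = 0.00999, limma). Eif2b1, the alpha subunit, fell at the third step by 0.51 on the log2 scale (adjusted p = 0.0278, limma), a call lost without any 1 of 3 libraries, without the variance trend and with the compared populations alone. Eif2b2 and Eif2b4, regulatory subunits, did not pass the F-test. Their changes over the whole span were -0.41 with an interval of -0.94 to 0.12 and -0.40 with an interval of -0.76 to -0.04. With library totals both were called lower there (adjusted p = 0.0421 and 0.00587, limma), and Eif2b4 also with quantile normalization (adjusted p = 0.0271). Leaving out Basophil library 2 gave the call for Eif2b2, and leaving out DN-GMP library 3 that for Eif2b4. Eif2b4 shares exonic bases with Snx17 on the other strand.

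The 4 kinases of eIF2 alpha did not move together. Eif2ak1, which encodes the heme-regulated kinase HRI, was higher in every Basophil library than in every progenitor library. It had 64.1, 108 and 105 CPM in DN-GMPs, 88.9, 68.3 and 83.5 CPM in Pro-BMPs, 80.8, 80.7 and 63.04 CPM in Pre-BMPs and 172, 145 and 171 CPM in Basophils. The change was 1.13 ± 0.20 (SE) against Pre-BMPs (adjusted p = 0.00151, limma) and 0.85 ± 0.20 against DN-GMPs (adjusted p = 0.00496). Both calls held in all alternatives that were run, library totals included. Exons of Eif2ak1 overlap those of Aimp2 over 487 bases and of Ankrd61 over 172 bases on the other strand, and reads of these stretches cannot be told apart. Eif2ak4, which encodes the amino acid sensor GCN2, had 21.6, 13.5 and 11.8 CPM in Basophils, against 34.5, 52.7 and 26.4 CPM in DN-GMPs, a change of -1.26 ± 0.37 (adjusted p = 0.0153, limma) that was lost without DN-GMP library 2 or Basophil library 3. Eif2ak2, the double-stranded RNA kinase PKR, and Eif2ak3, the endoplasmic reticulum kinase PERK, did not pass the F-test (adjusted p = 0.341 and 0.593, limma). Eif2ak2 ran from 21.5 to 48.6 CPM and Eif2ak3 from 12.9 to 36.95 CPM, with libraries of one population spread as widely as the populations. Eif2ak2 was called lower in Basophils against DN-GMPs with library totals (adjusted p = 0.0306, limma) and without Basophil library 3.

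**Figure D3:**
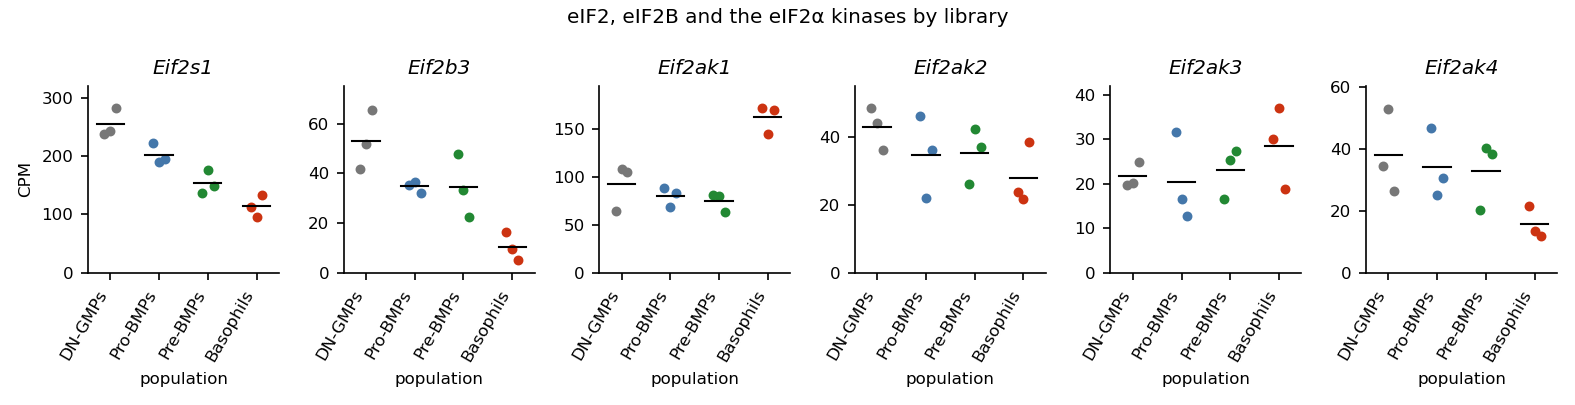
CPM of the eIF2 alpha subunit gene, an eIF2B subunit gene and the 4 eIF2 alpha kinase genes in each library, with a line at the mean of 3 and axes from 0, in DN-GMPs (grey), Pro-BMPs (blue), Pre-BMPs (green) and Basophils (red). Eif2s1 and Eif2b3 are lowest in Basophils, and Eif2ak1 is at 145 to 172 CPM there and at 63.04 to 108 CPM in the progenitors.

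Genes known to respond when eIF2 is phosphorylated were also read, from a list of 14 of which 10 are in the table. The list also holds regulators of that phosphorylation, such as Impact and Ppp1r15b. In Basophils against DN-GMPs 7 of the 10 were called higher and 1 lower, where 23.2% of all genes were called in each direction, with a list median of 1.71 on the log2 scale, against -0.01 over all genes. The 7 include Impact, whose call was lost with library totals, with quantile normalization, with the compared populations alone, and without any 1 of 4 of the 6 libraries. They also include Chac1, whose call was lost without any 1 of 3 libraries. In Basophils against Pre-BMPs 4 were called higher, where 13.9% of all genes were. The 4 were Atf4, Chac1, Ddit4 and Sesn2, and the call of Ddit4 held in every alternative run, as did its call against DN-GMPs. In Pre-BMPs against Pro-BMPs 2 were called higher, where 4.8% of all genes were, and 1 lower, where 4.69% were. The 2 were Ddit3, whose call there was lost without any 1 of the 6 libraries (adjusted p up to 0.0883), and Ppp1r15b. Ddit3, which encodes the transcription factor CHOP, had 5.88, 5.72 and 14.1 CPM in DN-GMPs, 10.7, 10.3 and 8.59 CPM in Pro-BMPs, 25.9, 24.2 and 21.9 CPM in Pre-BMPs and 34.99, 43.1 and 42.97 CPM in Basophils. Ppp1r15a, which encodes GADD34, the stress-induced subunit of the eIF2 alpha phosphatase, had 2.67, 11.1 and 7.53 CPM in DN-GMPs, 7.75, 10.9 and 12.98 CPM in Pro-BMPs, 25.9, 25.1 and 28.3 CPM in Pre-BMPs and 69.5, 45.3 and 51.7 CPM in Basophils. For both genes each Basophil library was above each Pre-BMP library, where 23.0% of all genes did so, but neither gene passed the test at that step. Their changes over the whole span were 2.36 ± 0.32 (SE, adjusted p = 0.00012, limma) and 3.16 ± 0.44 (adjusted p = 0.000132, limma). Sesn2, an inhibitor of mTORC1, had 48.6, 54.00 and 32.1 CPM in Basophils, against 20.1, 4.31 and 7.43 CPM in Pre-BMPs (change 2.34, adjusted p = 0.00612, limma). Chac1, a glutathione-degrading enzyme, had 39.7, 28.9 and 25.5 CPM in Basophils, against 0, 0.0767 and 1.28 CPM in Pre-BMPs, a call lost without any 1 of 5 of the 6 libraries and without the variance trend.

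Atf4 and Asns of that list did not follow the same course. Atf4, the transcription factor whose own mRNA is translated when eIF2 is phosphorylated, had 119, 117 and 93.2 CPM in DN-GMPs, 145, 155 and 137 CPM in Pro-BMPs, 101, 81.1 and 93.4 CPM in Pre-BMPs and 129, 122 and 117 CPM in Basophils. It fell at the second step (-0.67, adjusted p = 0.00625, limma), and its call as higher at the third (0.43, adjusted p = 0.0218) was lost with library totals, with quantile normalization, without the variance trend, and without Pre-BMP library 2 or Basophil library 1. Asns, the asparagine synthetase gene, had 0, 6.2 and 7.03 CPM in Basophils, against 21.4, 51.1 and 63.6 CPM in DN-GMPs, and was called lower (adjusted p = 0.0268, limma), a call lost without DN-GMP library 2 or 3 or with the compared populations alone. Ppp1r15b, the constitutive phosphatase subunit, was called higher in Basophils against DN-GMPs, a call that held in every alternative run. It was also called higher in Pre-BMPs against Pro-BMPs (0.85, adjusted p = 0.0137, limma), a call lost without Pro-BMP library 2 or Pre-BMP library 3.

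In eIF4F, the complex that reads the cap, the genes of the 3 subunits each fell over the whole span, by different courses. The promoters of their genes are shown because these subunits work as 1 complex and each was lower in Basophils than in DN-GMPs. The sequences are those of RefSeq (GRCm38.p6), 250 bases before to 50 bases after the annotated start, 5′ to 3′ on the strand of the gene, with CACGTG in capitals. CACGTG is the E-box, the letters that Myc and other basic helix-loop-helix factors are known to bind, and it reads the same on both strands. Only windows of these genes that hold it are shown, so its presence in them was fixed by that choice. They lie at chr3:138527018-138527317 on the plus strand for Eif4e, chr11:69672374-69672673 on the minus strand for Eif4a1 and chr16:20672477-20672776 on the plus strand for Eif4g1.
Eif4e: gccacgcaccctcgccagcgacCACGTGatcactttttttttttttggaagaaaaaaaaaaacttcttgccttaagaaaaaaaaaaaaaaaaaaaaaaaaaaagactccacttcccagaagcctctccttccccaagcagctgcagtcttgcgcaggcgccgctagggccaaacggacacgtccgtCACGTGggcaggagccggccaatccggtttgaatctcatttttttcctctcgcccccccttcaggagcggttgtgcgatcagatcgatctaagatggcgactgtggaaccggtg
Eif4a1: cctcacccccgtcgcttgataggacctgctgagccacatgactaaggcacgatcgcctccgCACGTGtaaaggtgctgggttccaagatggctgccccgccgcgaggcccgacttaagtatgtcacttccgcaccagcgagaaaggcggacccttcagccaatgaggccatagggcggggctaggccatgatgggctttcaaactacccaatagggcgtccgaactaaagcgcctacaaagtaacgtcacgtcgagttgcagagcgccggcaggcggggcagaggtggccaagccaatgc
Eif4g1: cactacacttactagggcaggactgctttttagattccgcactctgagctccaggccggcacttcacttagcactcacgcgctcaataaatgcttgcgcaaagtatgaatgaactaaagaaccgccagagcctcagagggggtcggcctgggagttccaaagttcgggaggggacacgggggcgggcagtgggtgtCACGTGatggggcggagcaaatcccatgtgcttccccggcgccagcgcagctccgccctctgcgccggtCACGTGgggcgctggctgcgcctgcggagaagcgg

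The first base of the motif stood at -228 and -64 in Eif4e, at -189 in Eif4a1 and at -54 and 16 in Eif4g1. The count has no 0 between the bases before the start site and those from it on. The promoter table matched 42 of the 52 members with 55 promoters, and 10 of the 42 genes (23.8%) held the motif, against 11.7% of the genes of the expression table that have a promoter there. Per promoter the shares were 21.8% of those of members, 9.93% of those of genes in the expression table and 7.15% of all 32851 promoters. The other members with the motif were Eif5a, Eif5a2, Eif4h, Eif3a, Eif3f, Eif3k and Eif1b. Among the 10, the change in Basophils against DN-GMPs ran from -1.48 in Eif5a to 0.08 in Eif1b, leaving out Eif5a2, which had few reads in Basophils. Eif5a2 was lower there than in DN-GMPs, without passing the test. A match describes the letters in the window and nothing about binding.

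Eif4e, the cap-binding subunit, was level through the 3 progenitor populations and lower in Basophils. It had 183, 171 and 182 CPM in DN-GMPs, 181, 221 and 178 CPM in Pro-BMPs, 173, 203 and 181 CPM in Pre-BMPs and 73.7, 89.9 and 91.4 CPM in Basophils. The change at the third step was -1.13 ± 0.12 (SE; adjusted p = 3.7e-05, limma), while at the second step it was -0.05 with an interval of -0.32 to 0.21. Its relatives took another course. Eif4e2, which encodes the cap-binding protein 4EHP, known as a repressor of the mRNAs it binds, ran from 79.5 to 115 CPM over all 12 libraries and did not pass the F-test (adjusted p = 0.606, limma). Eif4e3, another member of the cap-binding family, had 23.8, 30.6 and 20.7 CPM in DN-GMPs, 27.1, 24.8 and 23.6 CPM in Pro-BMPs, 44.3, 35.7 and 34.6 CPM in Pre-BMPs and 50.7, 34.6 and 50.03 CPM in Basophils. All Basophil and Pre-BMP libraries of Eif4e3 lay above all DN-GMP and Pro-BMP libraries, and it was called higher in Basophils than in DN-GMPs (0.85 ± 0.21, adjusted p = 0.0066, limma), also with library totals.

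The balance within the cap-binding family differed between the populations. The ratio of Eif4e to Eif4e3 in CPM was 7.23 for DN-GMPs, 7.66 for Pro-BMPs, 4.88 for Pre-BMPs and 1.904 for Basophils, as geometric means over 3 libraries. The log2 ratio of Eif4e to Eif4e2 was 0.63 to 1.19 in the 9 progenitor libraries and -0.41 to -0.23 in the 3 Basophil libraries. Per kilobase of exon (GENCODE M21), Eif4e was at 14.2 ± 1.63 CPM, Eif4e2 at 14.2 ± 1.07 CPM and Eif4e3 at 17.9 ± 3.62 CPM in Basophils (SD, n = 3), levels whose libraries overlapped. In DN-GMPs the same levels were 29.7 ± 1.14, 14.4 ± 0.545 and 9.95 ± 2 CPM per kilobase (SD, n = 3), with Eif4e clear of the other two. These ratios and levels carry no test.

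The scaffold genes of the eIF4G family differed as well. Eif4g1, the main scaffold, had 263, 265 and 302 CPM in DN-GMPs, 264, 229.7 and 174 CPM in Pro-BMPs, 152, 168 and 133 CPM in Pre-BMPs and 127, 133 and 163 CPM in Basophils. Pre-BMPs and Basophils overlapped, and the whole change was -0.98 ± 0.16 (SE; adjusted p = 0.000365, limma), while the second step alone gave -0.55 and missed the threshold (adjusted p = 0.0509). Eif4g1 was called lower at that step with quantile normalization (adjusted p = 0.0474, limma), voom weights (adjusted p = 0.0456) or 5 reads added (adjusted p = 0.0438). The same held with a mean of at least 10 CPM (adjusted p = 0.0243) and without Pro-BMP library 3 (adjusted p = 0.0152). Eif4g2, which encodes DAP5, a scaffold without the eIF4E-binding site, had 537, 674 and 604 CPM in Pre-BMPs, against 890.2, 850.3 and 739 CPM in Pro-BMPs (-0.45, adjusted p = 0.0231, limma), a call lost without Pro-BMP library 1 or 2, Pre-BMP library 1 or 3, the variance trend, or with quantile normalization. Eif4g3, a scaffold close to Eif4g1, had 106, 69.99 and 58.1 CPM in DN-GMPs, 109, 129 and 119 CPM in Pro-BMPs, 129, 131 and 112 CPM in Pre-BMPs and 131, 85.1 and 126 CPM in Basophils. It did not pass the F-test (adjusted p = 0.0561, limma). Eif4g3 was called higher in Basophils against DN-GMPs with 5 reads added (adjusted p = 0.0476, limma) or a mean of at least 10 CPM (adjusted p = 0.0291). The same held without DN-GMP library 1 or Basophil library 2. At the first step its libraries did not overlap, with 0.65 in Pro-BMPs against DN-GMPs (adjusted p = 0.187), and without DN-GMP library 1 this was the only member called at that step (0.89, adjusted p = 0.0389). The ratio of Eif4g1 to Eif4g3 in CPM was 3.66 for DN-GMPs, 1.85 for Pro-BMPs, 1.22 for Pre-BMPs and 1.25 for Basophils.

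Eif4a1, the helicase of eIF4F, had 658, 683 and 728 CPM in DN-GMPs, 715, 713 and 621 CPM in Pro-BMPs, 574, 527 and 484 CPM in Pre-BMPs and 289, 369 and 326 CPM in Basophils. DN-GMPs and Pro-BMPs overlapped and the later populations each lay below the one before, with -0.37 at the second step (adjusted p = 0.0369, limma; lost without any 1 of 4 of the 6 libraries, with library totals and without the variance trend) and -0.69 ± 0.10 (SE) at the third (adjusted p = 0.000308). Eif4a2, its close relative, ran from 46.1 to 98.5 CPM and did not pass the F-test (adjusted p = 0.31, limma). Its change in Basophils against DN-GMPs was -0.47 with an interval of -0.95 to 0.01, called lower with library totals (adjusted p = 0.0184) and with quantile normalization (adjusted p = 0.0403). Eif4b and Eif4h, which encode cofactors of the helicase, were both called lower in Basophils than in DN-GMPs, by -0.85 (adjusted p = 2.52e-05) and -0.57 (adjusted p = 0.000166) on the log2 scale.

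**Figure D4:**
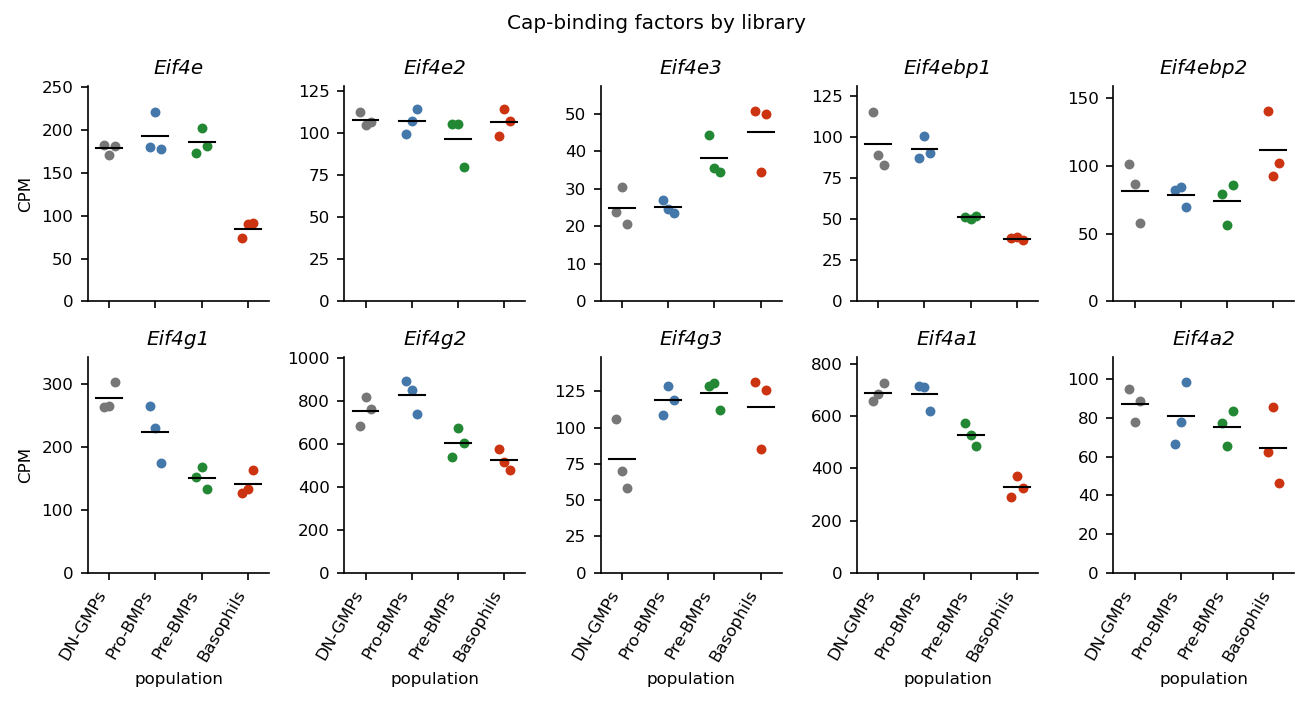
CPM of 10 genes of the cap-binding machinery in each library, with a line at the mean of 3 and axes from 0, in DN-GMPs (grey), Pro-BMPs (blue), Pre-BMPs (green) and Basophils (red). Eif4e is at 73.7 to 91.4 CPM in Basophils and 171 to 221 CPM before, Eif4ebp1 is at 50.2 to 51.8 CPM in Pre-BMPs and 83.1 to 115 CPM before, and Eif4e3 is highest in Pre-BMPs and Basophils.

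Eif4ebp1, which encodes the 4E-binding protein that mTORC1 switches off, was the member with the largest called change at the second step. It had 115, 88.6 and 83.1 CPM in DN-GMPs, 86.96, 101 and 90.1 CPM in Pro-BMPs, 51.3, 50.2 and 51.8 CPM in Pre-BMPs and 38.3, 38.9 and 37.2 CPM in Basophils. The Pre-BMP libraries lay close together and below all Pro-BMP libraries, with a change of -0.85 ± 0.14 (SE; adjusted p = 0.00299, limma) that held in every alternative run. The third step gave -0.42 ± 0.14 (adjusted p = 0.0385, limma), a call lost with any 1 of the 6 libraries left out, with voom weights and without the variance trend, while the libraries of the 2 populations did not overlap. Eif4ebp2, the second 4E-binding protein gene, had 140.5, 92.6 and 102 CPM in Basophils, against 79.4, 56.1 and 86.3 CPM in Pre-BMPs. It did not pass at that step (0.60, adjusted p = 0.0802, limma) nor in the F-test (adjusted p = 0.175). With a mean of at least 10 CPM it was called higher at that step (adjusted p = 0.0446, limma). The ratio of Eif4ebp1 to Eif4ebp2 in CPM was 1.19 for DN-GMPs, 1.18 for Pro-BMPs, 0.702 for Pre-BMPs and 0.346 for Basophils, and the Basophil libraries lay below all others. Eif4a3, a helicase of the exon junction complex, was called lower in Basophils than in DN-GMPs (-0.55, adjusted p = 0.0029, limma). Eif4enif1, the nuclear import carrier of eIF4E, did not pass the F-test (adjusted p = 0.87).

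Of 13 listed genes that regulate eIF4E or belong to mTORC1 signalling, 2 were called higher and 2 lower in Basophils against Pre-BMPs. That is near the 13.9% and 16.5% of all genes called there, with a list median of -0.37 and a median of -0.10 over all genes. Mknk1, an eIF4E kinase gene, had 25.6, 30.9 and 38.4 CPM in DN-GMPs, 52.6, 36.5 and 43.7 CPM in Pro-BMPs, 46.01, 57.3 and 67.7 CPM in Pre-BMPs and 228, 159 and 156 CPM in Basophils. Its Basophil libraries lay above all others, with a change of 1.66 ± 0.22 (SE) against Pre-BMPs (adjusted p = 0.00021, limma). Mknk2, the second such kinase gene, had 120.02, 98.2 and 118 CPM in Basophils, against 54.8, 74.9 and 71.7 CPM in Pre-BMPs (0.75, adjusted p = 0.00393, limma), a call lost with library totals. Pdcd4, an inhibitor of eIF4A, had 64.6, 41.3 and 52.4 CPM in Basophils, against 127, 131 and 137 CPM in Pre-BMPs (-1.34, adjusted p = 9.82e-05, limma). Larp1, which binds the mRNAs of ribosomal proteins, had 264, 285 and 322 CPM in DN-GMPs, 221, 227 and 196 CPM in Pro-BMPs, 150.1, 109 and 143 CPM in Pre-BMPs and 83.2, 67.1 and 84.3 CPM in Basophils, and was called lower at the second step (-0.69, adjusted p = 0.0112, limma; lost without Pro-BMP library 2) and at the third (-0.77, adjusted p = 0.00181). Mtor, Rptor, Tsc1, Tsc2, Rps6kb1 and Rps6kb2 did not pass the test at any of the 3 steps.

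The genes of eIF5, eIF5A, eIF5B and eIF6 included the gene with the smallest p of the family. Eif5a, whose product helps ribosomes over difficult peptide bonds and carries the amino acid hypusine, had 1641, 1518 and 1602 CPM in DN-GMPs, 1386, 1412 and 1291 CPM in Pro-BMPs, 1139, 1076 and 916 CPM in Pre-BMPs and 554, 602 and 549 CPM in Basophils. Every population lay below the one before it without overlap. The change was -0.39 ± 0.08 (SE) at the second step (adjusted p = 0.00879, limma), -0.87 ± 0.08 at the third (adjusted p = 9.23e-06) and -1.48 ± 0.08 over the whole span (adjusted p = 6.51e-08). Per kilobase of exon it was the highest member in all 4 populations, at 668 CPM in DN-GMPs, 573 CPM in Pro-BMPs, 439 CPM in Pre-BMPs and 239 CPM in Basophils. In Basophils it lay near Eif1 at 203 ± 13.2 CPM per kilobase, against 239 ± 12.3 for Eif5a (SD, n = 3). Eif5a2, its relative, was at 0 to 5.61 CPM, and in Basophils it had 2.41, 0 and 0.507 CPM, so no fold is given. Of the enzymes that make hypusine, Dohh had 49.3, 45.8 and 66.7 CPM in Basophils, against 86.2, 68.7 and 73.9 CPM in Pre-BMPs (-0.51, adjusted p = 0.0367, limma; lost without any 1 of 4 libraries, without the variance trend and with the compared populations alone), and Dhps did not pass the test at any step.

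Eif5, the GTPase-activating protein of eIF2, was the only member called in opposite directions at successive steps. It had 328, 299 and 324 CPM in DN-GMPs, 309, 275 and 259 CPM in Pro-BMPs, 201, 198 and 206 CPM in Pre-BMPs and 252, 262 and 254 CPM in Basophils. It fell in Pre-BMPs against Pro-BMPs (-0.48 ± 0.08, SE; adjusted p = 0.00329, limma), was called higher in Basophils against Pre-BMPs (0.35 ± 0.08, adjusted p = 0.00609) and lower in Basophils against DN-GMPs (-0.31 ± 0.08, adjusted p = 0.00769). The higher level at the third step was lost with library totals (adjusted p = 0.833), with quantile normalization (adjusted p = 0.933) and without the variance trend, and the lower level against DN-GMPs without the variance trend. Eif5b, the GTPase that joins the large subunit, had 26.3, 35.3 and 29.9 CPM in Basophils, against 97.1, 73.1 and 117 CPM in DN-GMPs, a change of -1.63 ± 0.23 (adjusted p = 0.000137, limma). Exons of Eif5b overlap those of Rev1 on the other strand over 1643 bases. Eif6, which holds the large subunit free until it is needed, had 216, 215 and 201 CPM in DN-GMPs, 177, 192 and 187 CPM in Pro-BMPs, 142, 153 and 124 CPM in Pre-BMPs and 115, 122 and 114 CPM in Basophils, with a call at the second step (-0.41, adjusted p = 0.0198, limma; lost without any 1 of 3 libraries, without the variance trend and with the compared populations alone).

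**Figure D5:**
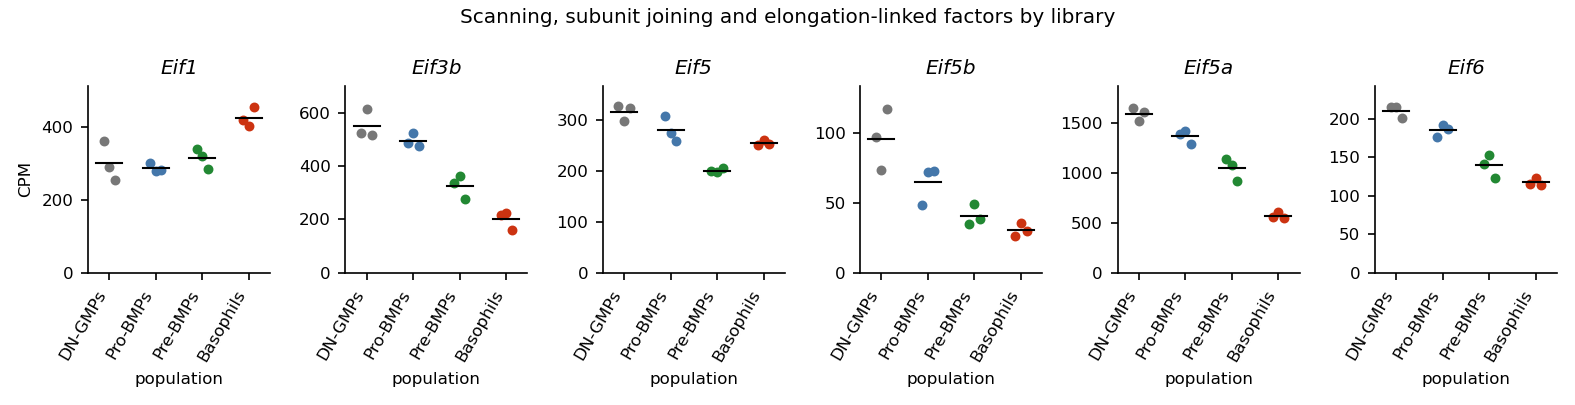
CPM of 6 genes that act on the small subunit, at subunit joining or on the elongating ribosome, in each library, with a line at the mean of 3 and axes from 0, in DN-GMPs (grey), Pro-BMPs (blue), Pre-BMPs (green) and Basophils (red). Eif3b, Eif5b, Eif5a and Eif6 are lowest in Basophils, Eif1 is highest there, and Eif5 is lowest in Pre-BMPs.

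Whether the last step differed from the one before it was tested directly, as the change from Pre-BMPs to Basophils minus the change from Pro-BMPs to Pre-BMPs, a comparison added after the data had been seen. It was called in 5 members, 2 positive, where 6.09% of all genes were, and 3 negative, where 5.01% were. These counts are near the shares of all genes, so they set the family apart in neither direction. Eif4e differed by -1.08 ± 0.21 on the log2 scale (SE; adjusted p = 0.00677, limma) and Eif5 by 0.83 ± 0.14 (adjusted p = 0.00272), and both calls held in every alternative run, library totals and single libraries left out included. The calls of Eif1ax (-0.86 ± 0.20, adjusted p = 0.0206), Eif2ak1 (1.23 ± 0.35, adjusted p = 0.0451) and Eif5a (-0.48 ± 0.13, adjusted p = 0.0389, limma) were each lost without at least 3 single libraries and without the variance trend, that of Eif2ak1 also with library totals and with quantile normalization.

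In all, 14 members did not pass the F-test: Eif1b, Eif2d, Eif2b2, Eif2b4, Eif2ak2, Eif2ak3, Eif3h, Eif3j2, Eif4a2, Eif4e2, Eif4g3, Eif4ebp2, Eif4enif1 and Eif5a2. Among them are 6 close relatives of members that fell over the whole span, Eif4a2 beside Eif4a1, Eif4e2 beside Eif4e, Eif4ebp2 beside Eif4ebp1, Eif4g3 beside Eif4g1, Eif3j2 beside Eif3j1 and Eif5a2 beside Eif5a. These relatives were taken from the members that did not pass, so the contrast follows from that choice. Related genes could also fall together: Eif1a and Eif1ax, and Eif4g1 and Eif4g2, were all called lower over the whole span. The means of Eif3j2 and Eif5a2 were below those of DN-GMPs too, at low levels and without passing the test. Eif3j2 had 1.04, 0.602 and 0.83 CPM in Basophils, against 1.74, 1.17 and 2.48 CPM in DN-GMPs, called lower without the variance trend. Eif5a2 had 2.41, 0 and 0.507 CPM in Basophils, against 5.41, 2.57 and 5.61 CPM in DN-GMPs, called lower with library totals, voom weights, 5 reads added or Basophil library 1 left out. For the first 4 relatives the 95% interval of the change in Basophils against DN-GMPs was -0.95 to 0.01, -0.30 to 0.26, -0.06 to 0.98 and 0.09 to 1.05 on the log2 scale, and for the 4 genes that fell it was -1.29 to -0.86, -1.34 to -0.81, -1.62 to -1.01 and -1.32 to -0.64. The ratio of Eif4a1 to Eif4a2 in CPM was 7.94 for DN-GMPs, 8.53 for Pro-BMPs, 7.02 for Pre-BMPs and 5.21 for Basophils, with overlapping libraries.

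Factors that work beside the Eif genes, from a list of 14 initiation and ribosome recycling genes, had 4 called lower in Basophils against Pre-BMPs, where 16.5% of all genes were, and 6 in Basophils against DN-GMPs, where 23.2% were. The list medians were -0.20 and -0.40, against -0.10 and -0.01 over all genes. Bzw2, a regulator that competes with eIF5, had 319, 232 and 269 CPM in DN-GMPs, 189.8, 189.7 and 194 CPM in Pro-BMPs, 131, 169 and 103 CPM in Pre-BMPs and 15.2, 25.9 and 33.7 CPM in Basophils, a change of -2.47 ± 0.26 (SE) at the third step (adjusted p = 3.64e-05, limma). Its relative Bzw1 ran from 299 to 359 CPM in all libraries and did not pass the test at any step. Abce1, the ATPase that splits ribosomes after termination, had 92.2, 76.9 and 84.2 CPM in Basophils, against 167, 193 and 176 CPM in Pre-BMPs (-1.08, adjusted p = 8.54e-06, limma). Pabpc1, the poly(A)-binding protein that bridges to eIF4G, had 646, 463 and 584 CPM in DN-GMPs, 401, 386 and 405 CPM in Pro-BMPs, 264, 337 and 287 CPM in Pre-BMPs and 164, 189 and 227 CPM in Basophils, and Pabpc4 had 2.68, 4.63 and 5.26 CPM in Basophils, against 11.5, 9.43 and 8.94 CPM in Pre-BMPs, both called lower at the third step (adjusted p = 0.00657 and 0.0101, limma). Of 14 cell cycle genes 1 was called higher and 3 lower in Basophils against Pre-BMPs, where 13.9% and 16.5% of all genes were. In Basophils against DN-GMPs 2 were called higher and 7 lower, where 23.2% of all genes were in each direction, with a list median of -0.31. Their summed level was 3564 to 3751 CPM in DN-GMPs, 3285 to 3498 CPM in Pro-BMPs, 3261 to 3549 CPM in Pre-BMPs and 2734 to 3249 CPM in Basophils. The part of cell division in the changes of the initiation factors was not tested.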

How the data were processed

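RNA sequencing of 12 libraries, 3 from each of 4 sorted mouse bone marrow populations, was read from 1 table of 14560 genes. Per the labels' protocols, double-sorted cells went into TRIzol, and SmartSeq v4 and Nextera XT kits, which do not mark strand, were used for the libraries. Trimmomatic, STAR, deepTools and HTSeq are named in the submitters' processing notes, without versions. The build and annotation are not given in the sources used. The authors deposited log2 values of reads plus 0.5 per 1000000 of a library size that they had scaled. Taking the reads back gave whole numbers, within 0.001, for 100% of values, and CPM is given without the added 0.5 read. The filter of at least 10 reads in at least 3 libraries removed 0 genes, and 3 rows that name no gene were left out. They held 6.65% to 12.6% (no feature), 3.63% to 4.14% (ambiguous) and 8.51% to 12.1% (more than 1 place) of the reads per library. A count of 0 allows up to 3 reads, or 0.0512 to 0.0745 CPM, for counting error only.

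The deposited log2 values were tested with limma (version 3.58.1, R version 4.3.3), with 1 mean per population over 12 libraries, no block, a mean-variance trend and Benjamini-Hochberg adjustment over all genes. Tests were two-sided with a threshold of 0.05, and the fit was tested on simulated data. An exact permutation test of 3 against 3 libraries cannot go below 0.1. Fits were repeated with other scalings, voom weights, 5 reads added, no filter, a mean of at least 10 CPM, no variance trend, the compared populations alone, a replicate block and each library left out. Named genes are, per comparison, up to 6 called members in each direction with the largest change and no overlap of libraries, plus a fixed set of core factors and related pairs. Lengths, positions and overlaps come from GENCODE M21 (GRCm38) and promoters from RefSeq. The members, roles and lists were chosen with earlier results of these data known. Genes added to name a role or a listed pathway were chosen after their values were seen.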

Additional observations from a re-analysis of the deposited data

How the results depend on the processing

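Of 78 calls of single members, the step difference included, none changed sign in any alternative, and 35 of the 38 calls in Basophils against DN-GMPs held in all of them, as did 14 of 23 in Basophils against Pre-BMPs, 2 of 12 in Pre-BMPs against Pro-BMPs and 2 of 5 for the step difference. Over the other settings, members that differed among populations numbered 34 to 39, and members lower in Basophils against DN-GMPs 35 to 41. In Pre-BMPs against Pro-BMPs, 2 members were called lower without the variance trend and 15 with voom weights. In Basophils against Pre-BMPs, 35 were called lower with library totals, and 1 was called higher with library totals, with quantile normalization and without the variance trend. For the step difference, 1 member was called positive with library totals, with quantile normalization, without the variance trend and with the replicate block, and 1 negative without the variance trend. Leaving out 1 library at a time gave 0 to 1 members higher in Pro-BMPs against DN-GMPs and 3 to 9 lower in Pre-BMPs against Pro-BMPs. It gave 16 to 19 lower and 2 to 3 higher in Basophils against Pre-BMPs, 34 to 37 lower and 3 to 4 higher in Basophils against DN-GMPs, and 1 to 2 positive and 1 to 3 negative for the step difference. The cause of these shifts was not tested.

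No pairing by replicate number was seen in the values. Over 18 pairs of same-numbered libraries, deviations from the population means correlated between -0.0729 and 0.102, with 1 pair over 0.1. Between libraries with different numbers they correlated between -0.121 and 0.0885. With only 3 libraries per population, these correlations cannot settle whether libraries of different populations came from the same mouse. With the replicate block, 12 members were lower in Pre-BMPs against Pro-BMPs, 18 lower and 3 higher in Basophils against Pre-BMPs, and 35 lower and 3 higher in Basophils against DN-GMPs. The 12 were not the same genes as without it: Eif1a and Eif4a1 lost their calls and Eif4b and Eif4h gained them. The calls of Eif2s1, Eif4ebp1, Chac1 and Dohh in Basophils against Pre-BMPs, of Ddit3 in Pre-BMPs against Pro-BMPs and of Eif2ak1 for the step difference were lost with the block too. The ratios of related genes within a library do not depend on the scaling. With 3 libraries per population, the call of a gene at low levels, such as Eif5a2, depended on the setting. So did calls of members at higher levels, such as Eif1 and Eif5 in Basophils against Pre-BMPs.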

Other observations

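Elongation and termination factors, from a list of 11 genes of which 10 are in the table, were read beside the initiation factors. In Basophils against DN-GMPs 8 of the 10 were called lower and 1 higher, where 23.2% of all genes were called in each direction, with a list median of -1.11 on the log2 scale, against -0.01 over all genes. Eef1g, a subunit of the exchange factor of eEF1A, had 406, 343 and 369.8 CPM in DN-GMPs, 243, 337 and 275 CPM in Pro-BMPs, 255, 238 and 199.98 CPM in Pre-BMPs and 71.8, 91.1 and 79.9 CPM in Basophils, a change of -1.51 ± 0.14 (SE) in Basophils against Pre-BMPs (adjusted p = 1.41e-05, limma). Gspt1, the termination factor eRF3A, had 59.5, 53.8 and 39.1 CPM in Basophils, against 149.6, 137 and 141 CPM in DN-GMPs (-1.51, adjusted p = 7.19e-05, limma). Eef2k, the kinase that inhibits the translocation factor eEF2, was the gene called higher and had 124, 130.3 and 94.1 CPM in DN-GMPs, 113, 88.2 and 116 CPM in Pro-BMPs, 238, 171 and 257 CPM in Pre-BMPs and 341, 224 and 427 CPM in Basophils. Its change over the whole span was 1.47 ± 0.24 (adjusted p = 0.00037, limma), and its call in Pre-BMPs against Pro-BMPs (1.06, adjusted p = 0.0174) was lost without Pro-BMP library 2 or Pre-BMP library 1 or 3 and without the variance trend. Eef2 itself had 617, 451 and 609 CPM in Basophils, against 946, 880.1 and 840.4 CPM in DN-GMPs (-0.68, adjusted p = 0.00101, limma).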
